A study of Mus musculus with 3 samples.

Results

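Mouse bone marrow-derived dendritic cells given lipopolysaccharide (LPS) together with 8-Br-cAMP were compared with unstimulated cells of the same kind. The comparison rests on 2 of the 3 arrays of the series, chosen by their sample labels: the array titled BMDC(+LPS+cAMP) and the array titled BMDC(-), with 1 array each. The stimulated culture had 10 ng/ml LPS from Escherichia coli and 100 µM 8-Br-cAMP for 3 h. The unstimulated culture had neither agent, and no incubation time to match the 3 h is recorded for it. Both had been grown from bone marrow in 10 ng/ml mouse GM-CSF, a growth factor, and were used after 10 days. The sources used here do not give strain, sex or age of the mice, nor whether the arrays came from the same animals. A different culture stands behind each array, so the effect of the agents cannot be told apart from any other difference between the cultures. Cells given 8-Br-cAMP in the absence of LPS are not among the arrays, so this comparison joins the effects of both agents. The remaining array, of cells given LPS alone, is used here to set its value beside each named gene. All 3 comparisons of the series share arrays with each other.

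LPS, a component of the outer membrane of bacteria, is sensed by Tlr4. The adaptor Myd88 leads from there to NF-kB and the inflammatory cytokines. The adaptor Ticam1 leads to interferon beta, which then induces antiviral genes. Cyclic AMP is the messenger made by adenylate cyclases after Gs-coupled receptors are engaged. It activates protein kinase A, which phosphorylates CREB, a factor that binds the cAMP response element in promoters. 8-Br-cAMP is an analogue that enters cells and is broken down slowly. In myeloid cells cAMP is known for restraining Tnf and favouring Il10.

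Values are probe set signals on a linear scale, made with MAS5. The 2% trimmed means of the deposited signals were 135 unstimulated, 111 with LPS and 63.2 with both agents, so each array was scaled to their average. The highest array median after scaling, 32.5, was set as a floor. A gene was represented by its brightest probe set and counted as measured when either array read above the floor. This held for 12793 of 18193 genes. With 1 array per condition no p-value or standard error exists, and "higher" or "lower" below states a difference between these arrays. A gene was counted when the log2 difference was at least 1 (2-fold) in either direction. Where an array was under the floor, the true difference can only be larger, which the words "at least" mark. As a guide to error, the log2 differences of a gene's 2 brightest probe sets scattered around each other with an SD of 0.62 per probe set, over 5528 genes. That figure covers probe sets on these arrays and not the spread between cultures.

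The difference moved with signal. Genes with a mean signal of 128 to 256 had a median log2 difference of -0.40 over 2405 genes, while the 239 genes from 2048 to 4096 had a median of 0.47 and the 167 brighter ones 0.55. The array with both agents was the dimmest as deposited, but its brightest probe set, at 12749, was near that of the unstimulated array, at 15561. Cyclic loess, which removes such a trend, left medians of -0.14, 0.11 and -0.086 in those 3 ranges. The 4248 genes with a mean signal under 64 had a median of 0.050, and 0.096 under cyclic loess. The medians thus fell and then rose with signal before cyclic loess.

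**Figure D1:**
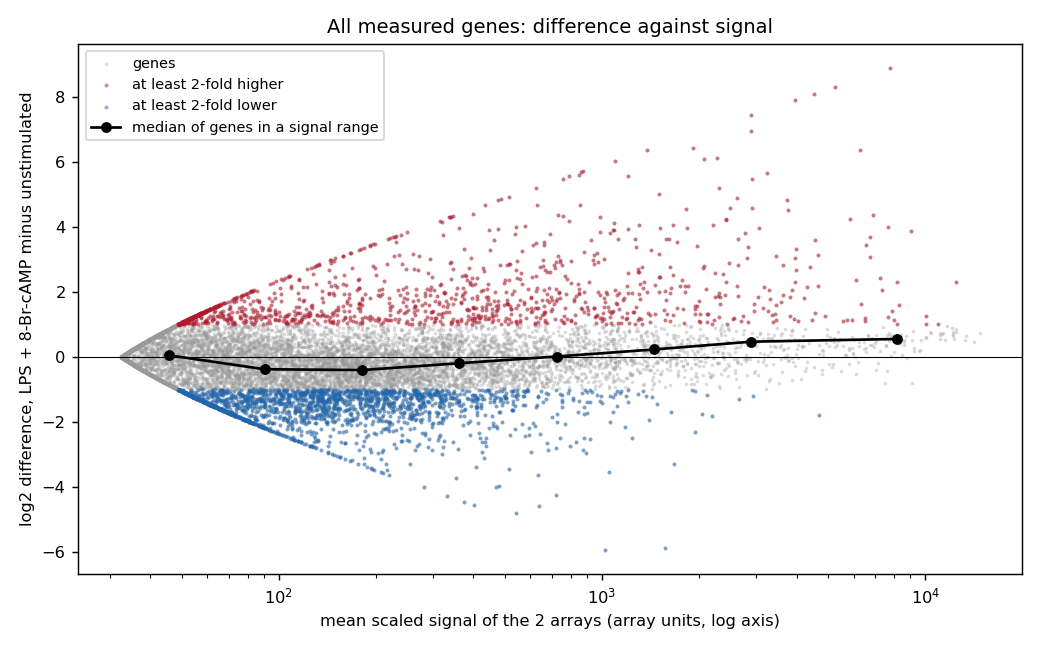
Each point is 1 of 12793 measured genes, placed by the mean scaled signal of the 2 arrays (log axis, array units) and its log2 difference, LPS plus 8-Br-cAMP minus unstimulated. Black points are medians of genes in a signal range. They go from 0.050 below a mean signal of 64 down to -0.40 at 128 to 256 and up to 0.55 above 4096. The straight edges on the left are genes at the floor on 1 array.

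In all, 1198 genes were at least 2-fold higher with both agents, 9.36% of the measured genes, and 2018 were at least 2-fold lower, 15.8%. At 10-fold the order turned, with 107 genes higher and 24 lower. Of the genes past 2-fold, 37.3% were higher. That split followed the scaling: it was 47.0% under quantile normalization, 48.8% under cyclic loess, 24.5% when arrays were scaled by their hybridisation spikes and 4.46% with the signals as deposited. The median of all genes measured came to -0.12 here, -0.0076 under cyclic loess, -0.32 under spike scaling and -1.08 as deposited. A list count is therefore read against the 9.36% and 15.8% of all measured genes, and a list median against the median of all genes. Of the 47 gene lists, 35 had a median above it, and 31 kept their side of it under all 5 other scalings. Among genes past 2-fold with a further measured probe set, the direction was shared by the next brightest in 519 of 584 higher and 863 of 1021 lower genes. It passed 2-fold in the same direction in 292 and 389 of them.

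The cells carried dendritic cell markers on both arrays. Itgax, the integrin chain CD11c, read 1518 unstimulated and 1165 with both agents, and H2-Ab1, a chain of MHC class II, 6184 and 7657. Cd74, the class II invariant chain, read 8500 and 13714. The differences of H2-Ab1 and Cd74, 0.31 and 0.69, turned to -0.33 and -0.055 under cyclic loess. Both chains of the GM-CSF receptor were also present, Csf2rb at 4182 and 3020 and Csf2ra at 1452 and 919. Markers of conventional dendritic cells were dim, with Flt3 at 60.0 and 49.6 and Xcr1 under the floor on both arrays. Zbtb46 was dim too, higher by 0.30 from 77.2 (0.30 to 1.49 over its probe sets). Macrophage transcripts were present as well, such as Csf1r at 7593 and 8465 and Adgre1 at 1543 and 815. The Csf1r probe sets ran from -1.15 to 0.16, and the direction of the brightest turned under each scaling but median scaling.

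Other transcripts set the culture with both agents apart from the unstimulated one. Xist, the RNA that silences an X chromosome in female cells, read 1716 with both agents and lay under the floor on the others. The Y-linked genes Eif2s3y (352 unstimulated), Uty (66.0), Kdm5d (76.2) and Zfy2 (88.5) were under the floor with both agents by their brightest probe sets. Such genes count as measured only through the unstimulated array, which fixed their direction. Usp9y, also Y-linked, was under the floor on both arrays. A dimmer Kdm5d probe set read 19.1 unstimulated and 36.1 with both agents. By brightest probe sets, Xist was above the floor on the array where these Y-linked genes were not, and under it on the others. Whether the arrays came from animals of different sex was not tested. Antibody transcripts differed too. Ighm, the mu heavy chain, read 3086 unstimulated and 52.5 with both agents, Igha, the alpha chain, 903 and 57.0, and Jchain, which joins secreted antibodies, 716 and under the floor. The 8 measured Ighm probe sets had log2 differences of -5.88 to -0.35. Igkv8-30, an antibody light chain gene read by a probe set of the kind that can also bind related sequences, was at least 61.8-fold lower.

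Neutrophil lineage markers were lower in 16 of 17 genes, 11 of them at least 2-fold, with a median of -1.35. Their summed signal was 44530 unstimulated, 46565 with LPS and 24486 with both agents. The granule proteins Mpo (369 against 50.5), Elane (380 against 79.7), Ltf (2100 against 372) and Olfm4 (334 against 34.1) were among those lower, while Lcn2 went the other way (3116 against 4442). Eosinophil markers summed to 1422 unstimulated, 1537 with LPS and 520 with both agents, with 3 of 4 at least 2-fold lower, such as Prg2 (1120 against 387) and Epx (140 against 48.1). B cell markers summed to 3914, 1972 and 488 in the same order, of which Ighm, described above, gave 3086, 1495 and 52.5. At least 2-fold lower were 5 of 10, such as Ighm and Cd22 (304 against 98.4), while Pax5 was under the floor unstimulated and read 51.9 with both agents. Plasma cell markers summed to 8253, 6763 and 8184, with 4 of 9 at least 2-fold lower and Sdc1 and Irf4 at least 2-fold higher. The LPS array lay near the unstimulated array for the neutrophil and eosinophil sums. In such bulk samples, fewer cells of a type and less RNA per cell cannot be told apart. The part of these culture differences in the results below was not tested.

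**Figure D2:**
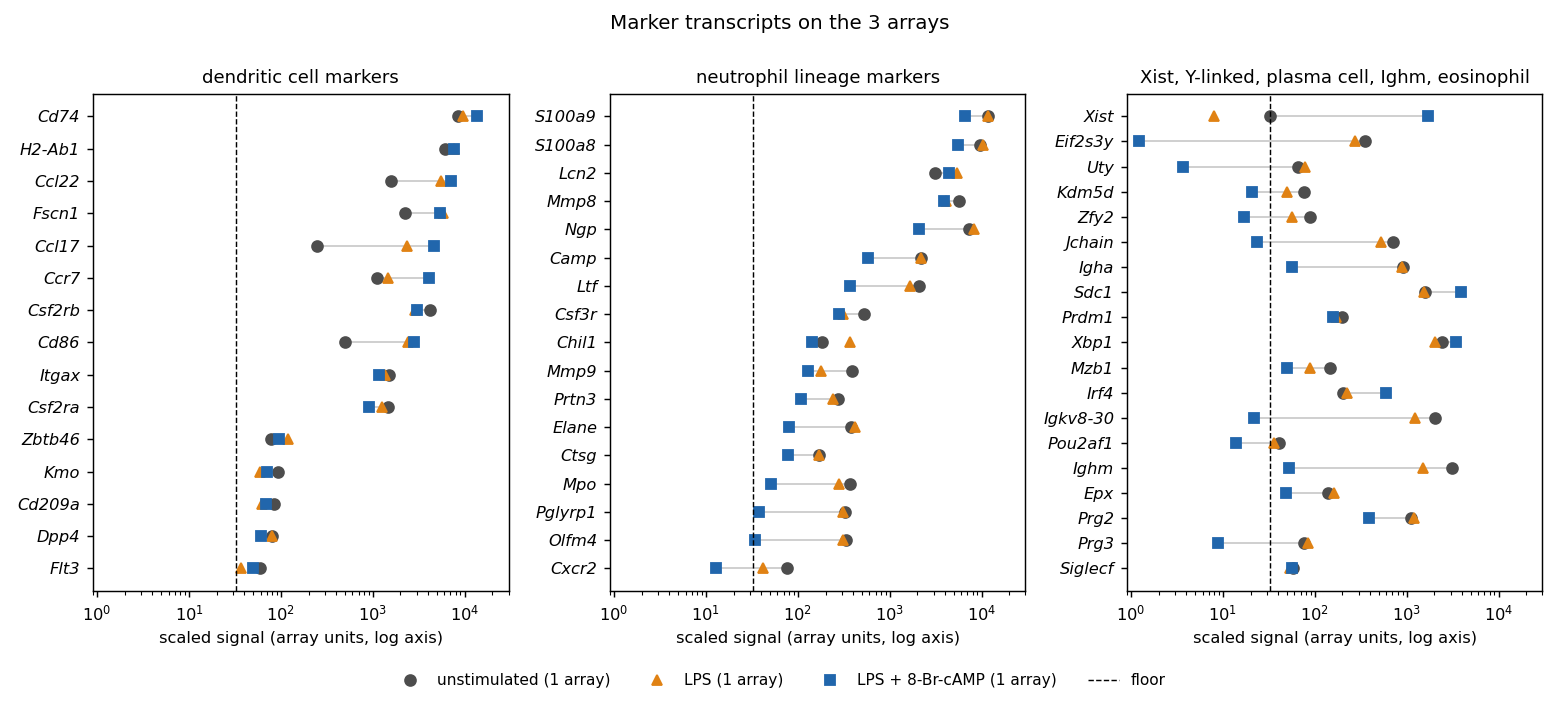
Scaled signal (log axis, array units) of measured marker genes on the 3 arrays, with the floor of 32.5 as a dashed line. Dendritic cell markers lie above the floor on every array, while Xist is high only with both agents and the Y-linked genes, Ighm, Igha, Jchain and most neutrophil granule genes are lowest there.

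The highest genes were antiviral and inflammatory. Rsad2, an antiviral enzyme, was under the floor unstimulated and read 11245 with LPS and 15528 with both agents, at least 477-fold higher than unstimulated. Cxcl10, a chemokine for activated T cells, read 8269 with LPS and 10465 with both agents, at least 322-fold higher. Il6, a cytokine of the acute phase response, read 6004 and 9014 in the same order, at least 277-fold higher. Cxcl1, a neutrophil chemokine, read 2997 and 7904, at least 243-fold higher, and by its other probe sets at least 4.02 log2 units higher. All 4 were under the floor in unstimulated cells and were higher with both agents than with LPS alone.

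Below them came Ifit1, which binds viral RNA, at least 176-fold higher, and Oasl1, which read 45.9 unstimulated, 3460 with LPS and 5716 with both agents (124-fold). Acod1, the enzyme that makes itaconate, read 151, 8925 and 12401 in the same order (82.4-fold). Usp18, which removes Isg15 from proteins, read 63.8, 3111 and 4466 (70.0-fold). Ptgs2, the inducible prostaglandin synthase, read 59.1, 2992 and 4069 (68.9-fold). Ifit2, Cmpk2, Il1a and Cxcl2 were higher by at least 83.6-fold, at least 66.2-fold, at least 52.0-fold and 50.7-fold. All of these were high with LPS as well. The remaining members of the 15 highest, Xist and Trem1, were not.

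**Figure D3:**
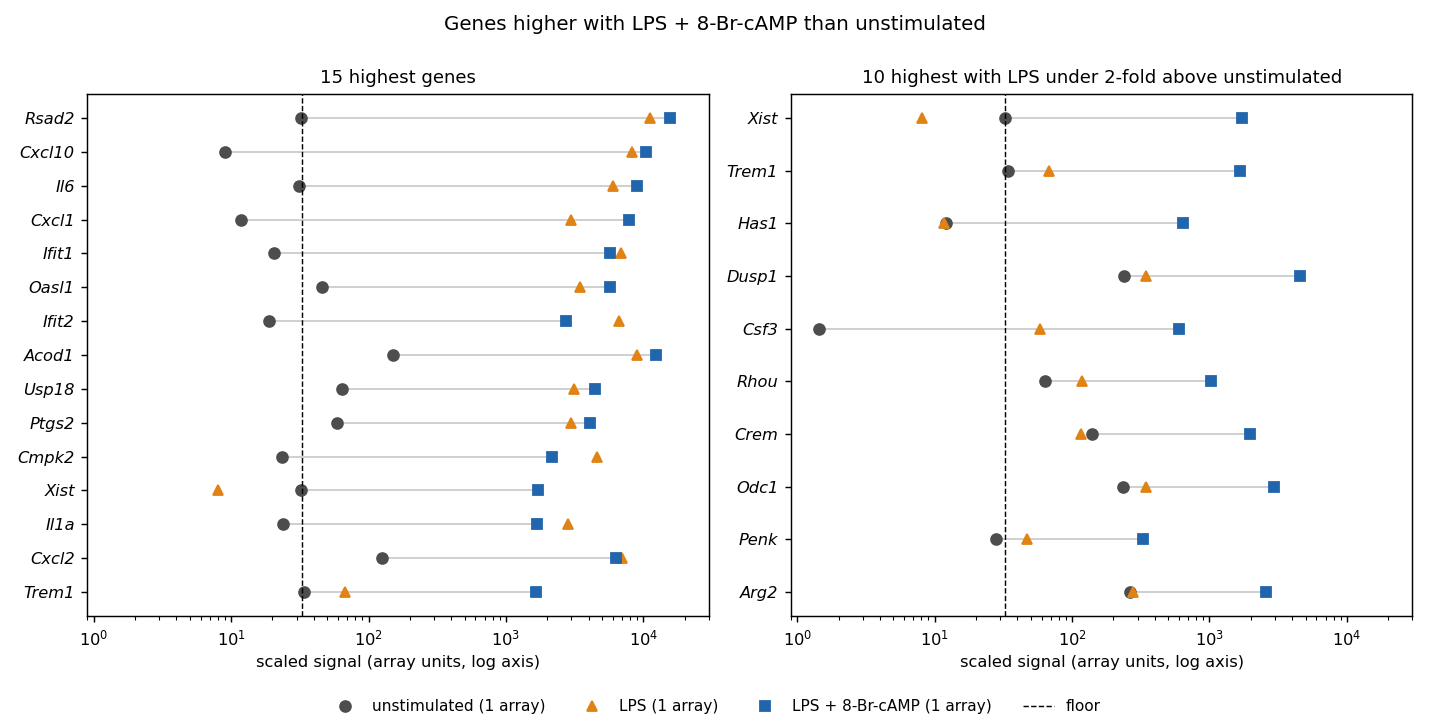
Scaled signal (log axis, array units) is shown on each of the 3 arrays for the 15 highest genes (left). The right side shows the 10 highest genes whose LPS array, after flooring, was under 2-fold above the unstimulated array. The dashed line is the floor of 32.5. On the left the LPS and LPS plus 8-Br-cAMP arrays are within 2-fold of each other for all but Xist, Trem1, Cxcl1, Ifit2 and Cmpk2, and on the right the LPS array lies near the unstimulated one or, for Csf3, between the others.

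Antiviral genes induced by interferon were the list with the highest median, 3.59, against -0.12 for all genes. Of 40 measured, 39 were at least 2-fold higher, and Bst2, which tethers virus particles, was the exception at 0.72. The median stayed 3.51 to 3.71 above that of all genes across the other scalings. Irf7, a factor that amplifies interferon production, read 81.6 unstimulated, 1303 with LPS and 1500 with both agents. Mx1 and Mx2, GTPases that block viruses, read 5901 and 1394 with LPS and 3131 and 921 with both agents, both far above the unstimulated array, where Mx2 was under the floor. Ifit3 read 35.9, 2803 and 760, so its difference from unstimulated was 4.40 with both agents and 6.29 with LPS alone. The interferon gene itself followed that order. Ifnb1 read 337 with LPS and 108 with both agents, which was 1.11 log2 units above unstimulated. Of the 11 measured interferon genes, receptors and their factors 4 were at least 2-fold higher, such as Irf1 (1.96) and Ifnar1 (1.39), and 2 lower, Ifngr1 (-1.10) and the kinase Tyk2 (-1.19, and -0.27 by its other probe set).

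Promoters of some of the highest antiviral and inflammatory genes held the elements named for the interferon and NF-kB pathways. Genes without a match were passed over, so the element was the condition for being shown. Short stretches from before the start site are shown for the highest genes with a match, in the gene's own direction and from RefSeq's GRCm38.p6 promoters. Capitals mark GAAANNGAA, the core of the interferon response element, or its reverse complement. Rsad2 is from chr12:26456543-26456591 (minus strand), Cxcl10 from chr5:92349074-92349122 (minus) and Ifit1 from chr19:34640785-34640833 (plus).
Rsad2: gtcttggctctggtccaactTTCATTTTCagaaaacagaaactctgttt
Cxcl10: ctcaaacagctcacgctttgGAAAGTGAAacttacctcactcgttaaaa
Ifit1: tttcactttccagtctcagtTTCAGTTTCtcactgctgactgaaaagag
In the next group capitals mark GGGANTTTC, a form of the NF-kB site. Il6 is from chr5:30013050-30013098, Cxcl1 from chr5:90891154-90891202 and Cxcl2 from chr5:90903782-90903830, all on the plus strand.
Il6: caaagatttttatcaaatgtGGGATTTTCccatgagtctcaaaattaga
Cxcl1: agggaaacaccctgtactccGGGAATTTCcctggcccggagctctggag
Cxcl2: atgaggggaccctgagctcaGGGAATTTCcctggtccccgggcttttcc

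Both strands of each promoter, 250 bases before to 50 after the start, were searched, and a gene counted when any of its listed promoters matched. The interferon element was in 16 of 28 antiviral genes at least 2-fold higher that had a promoter in the table (57.1%). It was in 12.5% of the 941 genes at least 2-fold higher, 7.87% of the 1640 lower genes, 8.11% of the 7743 genes under 2-fold apart and 9.76% of all 27025 genes of the table. The NF-kB form was in 20 of the 941 higher genes (2.13%), 0.976% of the lower genes, 1.08% of those under 2-fold apart and 1.29% of all. The AP-1 form TGANTCA was in 8.93% of the higher genes, 6.40% of the lower, 6.64% of those under 2-fold apart and 8.97% of all. Of 98 genes at least 8-fold higher with a promoter, 21 held the interferon element, 6 the NF-kB form and 21 the AP-1 form. A match describes letters in the promoter and is not evidence of binding.

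Chemokines were higher as a group. Among 10 measured CC chemokines 8 were at least 2-fold higher and 0 lower, with a median of 2.26, and among 11 CXC chemokines 8 were higher and 1 lower, with a median of 3.12. Ccl4 and Ccl3, chemokines made early by activated myeloid cells, read 49.2 and 93.6 unstimulated, 6000 and 9432 with LPS, and 2363 and 1872 with both agents. They were higher by 5.59 and 4.32, and lay below the LPS array. Ccl17 and Ccl22, ligands of Ccr4 made by mature dendritic cells, went the other way and were highest with both agents. Ccl17 read 246, 2376 and 4600 over unstimulated, LPS and both agents, and Ccl22 read 1581, 5531 and 7052. The neutrophil chemokine Cxcl5 was under the floor unstimulated and read 284 with both agents, at least 8.71-fold higher, and Cxcl14 read 80.0, 63.0 and 235. Ppbp, a platelet-type chemokine, read 1772, 2319 and 805 and was the member at least 2-fold lower (-1.14). Ccl12, raised on the LPS array at 380, was under the floor on both arrays compared here.

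Proinflammatory cytokines were at least 2-fold higher in 13 of 16 measured genes, none lower, with a median of 2.85. Tnf, the factor whose release LPS is best known for, stood between the other arrays. It was under the floor unstimulated and read 5206 with LPS and 283 with both agents, at least 8.70-fold higher than unstimulated. Il1b, the secreted interleukin-1, read 1151, 10572 and 16929. Il23a, a subunit of interleukin-23, was under the floor unstimulated and read 164 and 351. Il12b, the subunit shared by interleukin-12 and interleukin-23, read 155, 1377 and 734, and Il12a, the subunit of interleukin-12 alone, was under the floor and then 338 and 220. Both interleukin-12 subunits therefore lay between the unstimulated and the LPS array, while Il23a was highest with both agents. Csf3, the granulocyte growth factor, was under the floor unstimulated and read 58.5 and 596, at least 18.3-fold higher. Csf2, which encodes GM-CSF, and Lta were under the floor on both arrays, although LPS alone gave 81.6 and 90.2.

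The interleukin-1 family list held 4 of 7 genes at least 2-fold higher, with a median of 1.14. The receptor antagonist Il1rn read 633 unstimulated, 6771 with LPS and 13160 with both agents, 20.8-fold higher. The decoy receptor Il1r2 read 605, 775 and 2395, and Il18bp, which binds interleukin-18, read 196, 301 and 294, under 2-fold higher (0.59). Sigirr, an inhibitory receptor of the family, was at least 2.34-fold lower.

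NF-kB genes and their feedback had 15 of 22 members at least 2-fold higher and 0 lower, with a median of 1.87, and 1.55 to 2.00 above all genes across the scalings. Tnfaip3, an enzyme that edits ubiquitin and ends NF-kB signalling, read 315, 4219 and 7194 over unstimulated, LPS and both agents. Nfkbia, which holds NF-kB in the cytoplasm, read 2763, 8479 and 13557, and Nfkbiz, a nuclear cofactor, 146, 2418 and 2453. Zc3h12a, an RNase that degrades cytokine mRNA, read 72.3, 767 and 1001. The subunits were unequal, with Nfkb2 higher by 3.25 and Rel by 2.88, and Rela (0.85) and Relb (0.41) under 2-fold.

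In the Tlr4 complex 4 of 16 genes were at least 2-fold higher and 1 lower, with a median of 0.40 (0.45 under cyclic loess) that was negative as deposited but above that of all genes under each scaling. Tlr4 itself read 155 and 102, a difference of -0.61, and its probe sets ran from -1.88 to -0.11. Cd14, which hands LPS to the receptor, read 4222, 10940 and 20763, and Myd88 read 346, 1362 and 1353. Among the other Toll-like and Nod-like sensors 4 of 15 were at least 2-fold higher and 2 lower. Casp4, the sensor of cytosolic LPS known as caspase-11, read 125, 1166 and 893, and Tlr2 read 1308, 4590 and 4747. Tlr13 (-1.88) and Tlr8 (-1.36), endosomal RNA sensors, were lower. The suppressors of cytokine signalling Socs3 and Socs1 read 170 and under the floor unstimulated, 4241 and 661 with LPS, and 5077 and 647 with both agents. In that list of suppressors and STAT factors 7 of 15 were at least 2-fold higher and 1 lower.

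Maturation genes of dendritic cells were higher in 16 of 21 members at least 2-fold, with 1 lower, and the median of 1.91 lay 1.86 to 2.03 above all genes across scalings. Cd40, the receptor for T cell help, read 67.9 unstimulated, 2613 with LPS and 1394 with both agents, 20.5-fold higher. The costimulatory ligands Cd86 and Cd80 read 496 and 69.7 unstimulated, 2415 and 213 with LPS, and 2824 and 455 with both agents. Probe sets of Cd80 ran from 0.16 to 2.71. Cd83, a maturation marker, read 949, 1493 and 4288, and Ccr7, the receptor for homing to lymph nodes, 1122, 1457 and 4129. Cd70, the ligand of Cd27, was under the floor unstimulated and read 267 and 660, at least 20.3-fold higher. Several of these were thus highest with both agents, while Cd40 and Icam1 (517, 3115 and 1514) were highest with LPS alone. Cd48, an adhesion molecule of leukocytes, read 765, 476 and 297.

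Among antigen presentation genes those of class II differed little, while those of class I had a median of 0.51 (0.049 under cyclic loess). The class I median was negative as deposited but above that of all genes under each scaling. MHC class II presentation had 0 of 12 members past 2-fold and a median of 0.26, which turned to -0.24 under cyclic loess and was also negative under quantile normalization and as deposited. Class I presentation had 3 of 15 at least 2-fold higher, the peptide transporter Tap1 (2.99, but as low as 0.24 by its other probe sets), its regulator Nlrc5 (1.91) and the immunoproteasome subunit Psmb9 (1.17), and 1 lower, the trimming enzyme Erap1 (-1.02, and -0.21 by its other probe set).

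Targets of CREB were the list closest to the cAMP pathway. Of 25 measured, 16 were at least 2-fold higher and 2 lower, with a median of 1.67, 1.66 to 1.89 above all genes across scalings. Some of these genes were also high with LPS alone and others were not. Nr4a3, an orphan nuclear receptor, read 127 unstimulated, 3206 with LPS and 5692 with both agents, while its other probe set differed by 0.31. Pde4b, which degrades cAMP, read 345, 921 and 2066. Crem, which yields a cAMP-inducible repressor, read 140, 116 and 1983, 14.2-fold higher than unstimulated. Its 3 measured probe sets were higher by 0.33 to 4.19. Nr4a1 read 47.3, 60.7 and 406, Sik1, a kinase that restrains CREB coactivators, was at least 2.57-fold higher, and Il10, an anti-inflammatory cytokine under the floor unstimulated, read 234 with both agents, at least 7.20-fold higher. Rgs2, an inhibitor of G protein signalling, read 922, 94.7 and 334, and the clock gene Per1 read 177, under the floor and 55.4. Both had been lowest with LPS alone and stayed at least 2-fold below the unstimulated level with both agents.

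Fos, the AP-1 subunit, read 353 unstimulated, 190 with LPS and 1410 with both agents, so it was 3.99-fold higher than unstimulated and 7.41-fold higher than LPS alone. Btg2, an antiproliferative gene, had the same order, at 428, 225 and 1963, as did the acid-sensing receptor Gpr65, at 176, 53.0 and 647. Ramp3, a receptor accessory protein, read 425, 258 and 1768.

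For a further ranking, genes were kept when LPS alone, after flooring, was under 2-fold above unstimulated. The 10 highest were Xist, Trem1, Has1, Dusp1, Csf3, Rhou, Crem, Odc1, Penk and Arg2. Csf3 and Penk were under the floor unstimulated, so with LPS alone they were at least 1.80-fold and at least 1.45-fold higher and may exceed 2-fold. Trem1 lay close to the line at 1.98-fold. Trem1, a receptor that amplifies myeloid activation, read 34.1 unstimulated, 67.5 with LPS and 1668 with both agents, 49.0-fold higher, and 95.4, 83.4 and 874 by its other probe set. Has1, a synthase of hyaluronan, was under the floor on both other arrays and read 641, at least 19.7-fold higher. Dusp1, a phosphatase that switches off p38 and JNK, read 240, 347 and 4590, 19.1-fold higher. Odc1, the first enzyme of polyamine synthesis, read 236, 347 and 2930, and Arg2, the mitochondrial arginase that makes its substrate, 263, 276 and 2562. Rhou, a small GTPase, read 63.2, 118 and 1022, and Penk, the precursor of enkephalin peptides, was at least 10.0-fold higher, reading 327 with both agents. Genes entered these 10 only when all their measured probe sets went the same way.

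Full cAMP response elements, TGACGTCA, stood before the start site of some of these genes. The 4 highest genes with one wholly upstream are shown with the element in capitals, all on the minus strand of GRCm38.p6 as RefSeq gives it. Has1 is from chr17:17855244-17855291, Dusp1 from chr17:26508588-26508635, Btg2 from chr1:134079294-134079341 and Dcun1d3 from chr7:119895829-119895876.
Has1: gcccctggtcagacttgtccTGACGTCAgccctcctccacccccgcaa
Dusp1: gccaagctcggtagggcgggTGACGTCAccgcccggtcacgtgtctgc
Btg2: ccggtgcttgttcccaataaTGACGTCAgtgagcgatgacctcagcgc
Dcun1d3: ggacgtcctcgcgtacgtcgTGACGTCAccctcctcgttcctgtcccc
Dcun1d3, which encodes a neddylation factor, read 58.9 unstimulated, 122 with LPS and 227 with both agents. The element was in 3.72% of the 941 genes at least 2-fold higher, 2.74% of the lower genes, 3.34% of genes under 2-fold apart and 2.03% of all genes of the table. Its first 5 bases, TGACG, which the full element contains, were in 31.6%, 34.5%, 34.1% and 23.0% in the same order. Of the 98 genes at least 8-fold higher with a promoter, 2 held the full element (2.04%). Of the CREB targets at least 2-fold higher with a listed promoter, 8 of 10 held TGACG and 1 the full element. They had 1.5 listed promoters per gene, against 1.28 over measured genes, so more sequence was searched for each. A gene can be known as a CREB target because of such letters, so no conclusion is drawn from that share.

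The machinery that makes, senses and degrades cAMP mostly stayed within 2-fold, as did measured genes in general (9.36% at least 2-fold higher, 15.8% lower). Of 22 measured protein kinase A, Epac and adenylate cyclase genes 0 were at least 2-fold higher and 3 lower. Adcy7, the main adenylate cyclase of many leukocytes, read 1582 unstimulated, 584 with LPS and 205 with both agents, a log2 difference of -2.95. The kinase inhibitor Pkig (-1.01) and the kinase anchor Akap9 (-1.68) were the others, the latter by its brightest probe set and not by the next (-0.0007). Among phosphodiesterases Pde4b (2.58) was the 1 of 12 at least 2-fold higher and Pde3b (-1.28) the 1 lower. Gs-coupled receptors and Ramp proteins had 5 of 13 higher and 1 lower. Calcrl, the receptor for CGRP and adrenomedullin when paired with Ramp proteins, read 59.6, 1081 and 341, and the prostaglandin E2 receptors Ptger2 (0.40) and Ptger4 (0.091) were under 2-fold. Regulators of G protein signalling and arrestins were more often lower, 6 of 14 against 1 higher. Arrb1, which desensitises receptors, read 627, 112 and 87.0 (-2.85), Rgs19 515, 209 and 125, and Rgs1, the member higher, 547, 1150 and 2205.

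Immediate early factors split, with 11 of 24 at least 2-fold higher and 4 lower. Besides Fos the AP-1 subunits Junb (2.10), Fosl2 (2.04) and Fosl1 (1.82) were higher. Jun, by contrast, read 453, 615 and 181 (-1.33), but its other probe set differed by -0.22. Egr2, a zinc finger factor, read 302, 105 and 33.3 (-3.18) and Klf4 206, 83.5 and 70.3 (-1.55). Atf3, a repressor of inflammatory genes that LPS alone brought to 2421, read 783 unstimulated and 810 with both agents. Myc was at least 1.96-fold lower, under the 2-fold line.

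The MAP kinase phosphatases also split, 8 of 18 higher and 4 lower in their list. Dusp2, at least 25.7-fold higher, Dusp14, at least 13.6-fold, and Dusp16, which read 223, 1441 and 2327, joined Dusp1. Dusp5 read 163, 242 and 842. Dusp6, the cytoplasmic phosphatase of ERK, read 750, 201 and 97.9 (-2.94), and Dusp7, of the same subfamily, was at least 2.88-fold lower. Dusp3 was lower by its brightest probe set (-2.07) but not by its other probe sets (0.25 and 0.45).

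Arginine and polyamine metabolism counted 8 of its 15 measured genes past 2-fold upward and 1 downward, with a median of 1.19. Arg1, the cytosolic arginase, read 4287 unstimulated, 3660 with LPS and 11469 with both agents. Nos2, which makes nitric oxide from arginine, was under the floor and then 228 and 350, and the arginine transporter Slc7a2 read 896, 5948 and 6348. Smox, which oxidises spermine, read 536, 1165 and 3574. Srm, the spermidine synthase, was the member lower (-1.05). Prostaglandin synthesis held 3 of 12 higher. Ptges, the inducible prostaglandin E synthase, read 43.6, 533 and 676 beside Ptgs2, and the phospholipase Pla2g4a was higher by 1.45.

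Genes of anti-inflammatory and alternative activation went both ways, 9 of 24 at least 2-fold up and 4 down, with a median of -0.12, near that of all genes. Il4ra, the interleukin-4 receptor, read 326, 365 and 1156 and Retnla, a product of alternatively activated macrophages, 78.7, 58.6 and 194. The receptors Tgfbr1 (-2.38), Tgfbr2 (-1.84) and Cd200r1 (-2.81), which restrain myeloid cells, were lower, and so was the lectin Mgl2 (-1.03). In the metal list the metallothioneins Mt2, at 585, 3913 and 11140, and Mt1, at 1439, 4568 and 12087, were highest with both agents. Slc40a1, the iron exporter, was at least 6.18-fold lower, and 7 of the 15 measured genes in that list were higher and 2 lower.

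Proteases and coagulation genes had 9 of 26 members at least 2-fold higher and 1 lower, with a median of 0.81 that was 0.49 under cyclic loess and negative as deposited. Procr, the endothelial protein C receptor, read 251 unstimulated, 1677 with LPS and 7235 with both agents, 28.8-fold higher. Serpinb2, a plasminogen activator inhibitor, read 121, 2970 and 4470, and Timp1, an inhibitor of metalloproteinases, 1085, 1825 and 6872. Mmp9 was the member lower (-1.56), and it is also a neutrophil granule gene. Among growth factors Nrg1 was at least 7.18-fold higher, reading 234 with both agents and under the floor on the other arrays, while Pdgfb read 276, 64.4 and 44.2.

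The lowest genes were antibody transcripts, receptors and regulators of myeloid cells. After Igkv8-30 and Ighm came Cxcr4, the receptor of Cxcl12, which read 1048 unstimulated, 59.4 with LPS and 37.0 with both agents, 28.3-fold lower. Vsir, the checkpoint molecule VISTA, read 1225, 154 and 50.4 (24.3-fold lower), with a log2 difference of -1.88 by its other probe set. Cebpa, a factor of granulocyte and monocyte development, read 530, 115 and 32.9 (16.1-fold lower). Cd300lb, an activating receptor, read 1366, 86.8 and 71.2, and Dgkz, which removes diacylglycerol, 886, 156 and 55.3. Inpp5d, the lipid phosphatase SHIP1, read 655, 70.7 and 49.5 (13.2-fold lower). Mfsd12, Jchain, Tifab, Sesn1 and Tmem154, all under the floor with both agents, were at least 23.8-fold, 22.0-fold, 19.3-fold, 12.5-fold and 11.9-fold lower, and Igha and Ccr2 completed the 15. Outside the antibody genes the LPS array was low for these genes too, between the other arrays. Other probe sets gave smaller log2 differences for Sesn1 (as small as -0.55), Dgkz (-1.15), Inpp5d (-2.02) and Tifab (-3.06). Those of Ccr2 ran from -4.31 to -1.24.

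The genes lowest with both agents while LPS left them under 2-fold below unstimulated overlapped with these in Igkv8-30, Jchain and Igha. Of the 10, those 3 are antibody genes, Olfm4, Pglyrp1 and Mpo are neutrophil granule genes and Eif2s3y is Y-linked. The others were Pnisr, a splicing-associated protein, at 396, 223 and 35.3, Ccn2, a matrix protein induced by TGF-beta, at 1198, 856 and 163, and Nr1d2, a repressor of the circadian clock, at 312, 161 and 42.8. Those 7 of the 10 are members of marker lists described above, which were chosen with earlier results of these data known.

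**Figure D4:**
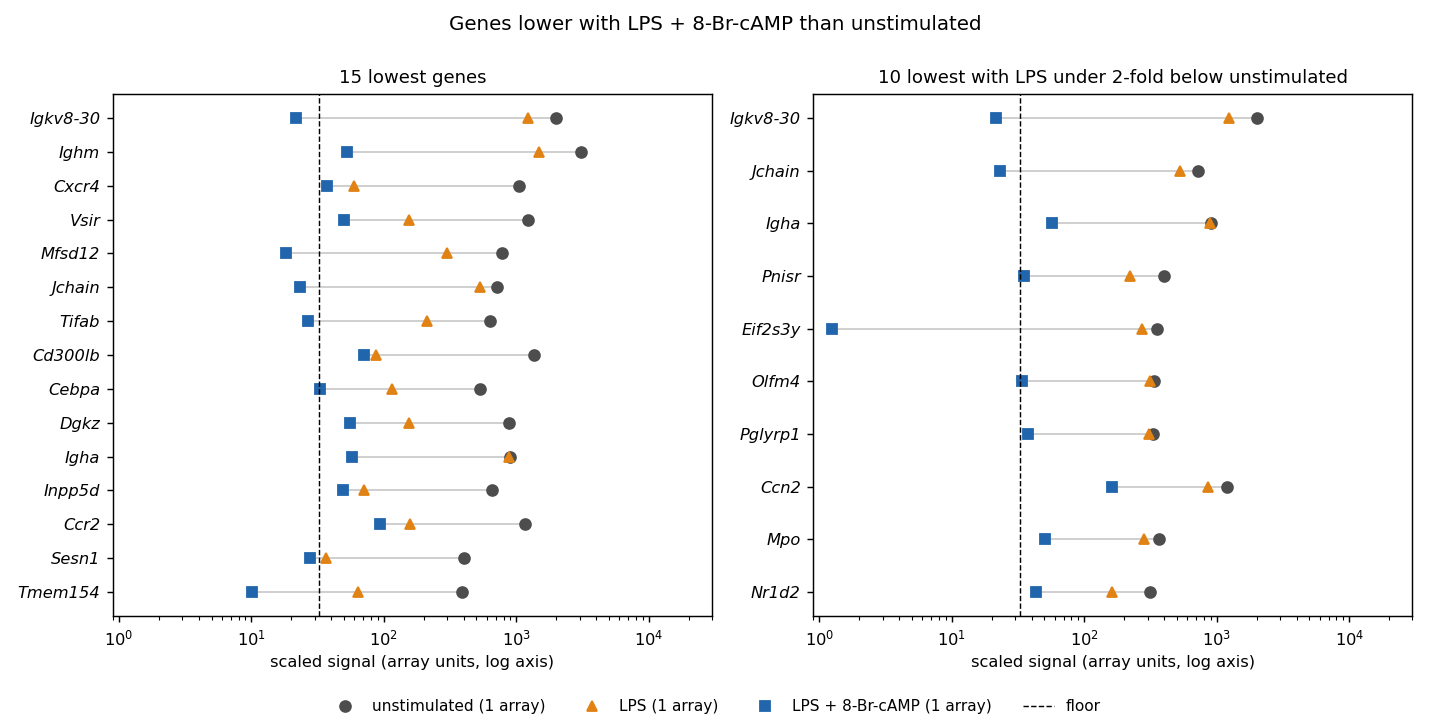
Scaled signal (log axis, array units) on each of the 3 arrays for the 15 lowest genes (left) and for the 10 lowest genes whose LPS array was under 2-fold below the unstimulated array (right); the dashed line is the floor of 32.5. On the left most LPS values lie between the other arrays, and on the right antibody, neutrophil granule and Y-linked genes make up 7 of 10.

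Chemokine and chemoattractant receptors were at least 2-fold lower in 8 of 16 measured genes and higher in 4. Ccr2 and Cx3cr1, the monocyte receptors for Ccl2 and Cx3cl1, read 1172 and 361 unstimulated, 159 and 73.6 with LPS, and 93.3 and under the floor with both agents. C3ar1, the receptor of complement C3a, read 1434, 1436 and 232, so it was lower with both agents but not with LPS alone. Lpar6, a lysophosphatidic acid receptor, read 1540, 76.5 and 212. Higher were Ccrl2 (3.98), the formyl peptide receptor Fpr2 (2.15), Ccr7 (1.88) and P2ry14 (1.76). The median of -0.61 was below that of all genes in each scaling but the deposited signals, where it lay 0.025 above. Of the Trem and Cd300 receptors 5 of 15 were lower and 1, Trem1, higher. Cd300a (-2.41), Cd300ld (-1.90) and Cd300lf (-1.56) were lower beside Cd300lb.

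Cell division genes were lower as a list. Of 32 measured S phase, G2 and mitosis genes 15 were at least 2-fold lower and 1 higher, with a median of -0.83, and 0.22 to 0.71 below all genes across scalings. Cdc20, which activates the anaphase-promoting complex, read 222, 121 and 47.2 over unstimulated, LPS and both agents. Mcm7, of the replicative helicase, read 401, 139 and 98.5, and Top2a, a topoisomerase, 230, 199 and 77.4. Mki67, a proliferation marker, went against the list at 270, 823 and 565. Cell cycle inhibitors and Foxo targets went both ways. The inhibitors Cdkn1a (806, 3868 and 3401) and Cdkn1b (177, 260 and 554) and the mTOR inhibitor Ddit4 (462, 714 and 2559) were higher. Foxo3 (-1.87), the sestrins Sesn1 (at least 12.5-fold lower), Sesn2 (-1.52, and -0.46 by its other probe set) and Sesn3 (at least 3.77-fold lower) and Arrdc3 (-1.75) were lower. By another probe set Sesn1 differed by only -0.55. In that list 6 of 20 were higher and 8 lower.

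Smaller lists also had medians below that of all genes under each scaling. Purine receptors and nucleotide-degrading enzymes had 6 of 15 lower and 2 higher, with a median of -0.85. Nt5e, the ecto-enzyme CD73 that makes adenosine, read 481, 99.5 and 117, and Pnp, which breaks down purine nucleosides, was higher, at 1969, 9179 and 10254. Circadian clock genes had 5 of 15 lower and 3 higher, with a median of -0.61. Dbp, an output factor of the clock, read 217, 57.7 and 39.9, while Nfil3, which opposes it at the same sites, read 420, 400 and 1357. Lysosome genes had a median of -0.32 (-0.64 under cyclic loess) with 3 of 27 lower and 2 higher. Atp6v0d2, a proton pump subunit, read 1918, 791 and 434, while Npc2, which binds cholesterol in lysosomes, read 4614, 5276 and 10754 (probe sets from 0.47 to 1.40). Among PI3-kinase genes Inpp5d and Inpp4a (at least 4.66-fold lower), phosphatases that remove its lipid products, stood beside Pik3ap1 (1.97) and Pik3r5 (1.37), an adaptor and a regulatory subunit, which were higher.

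**Figure D5:**
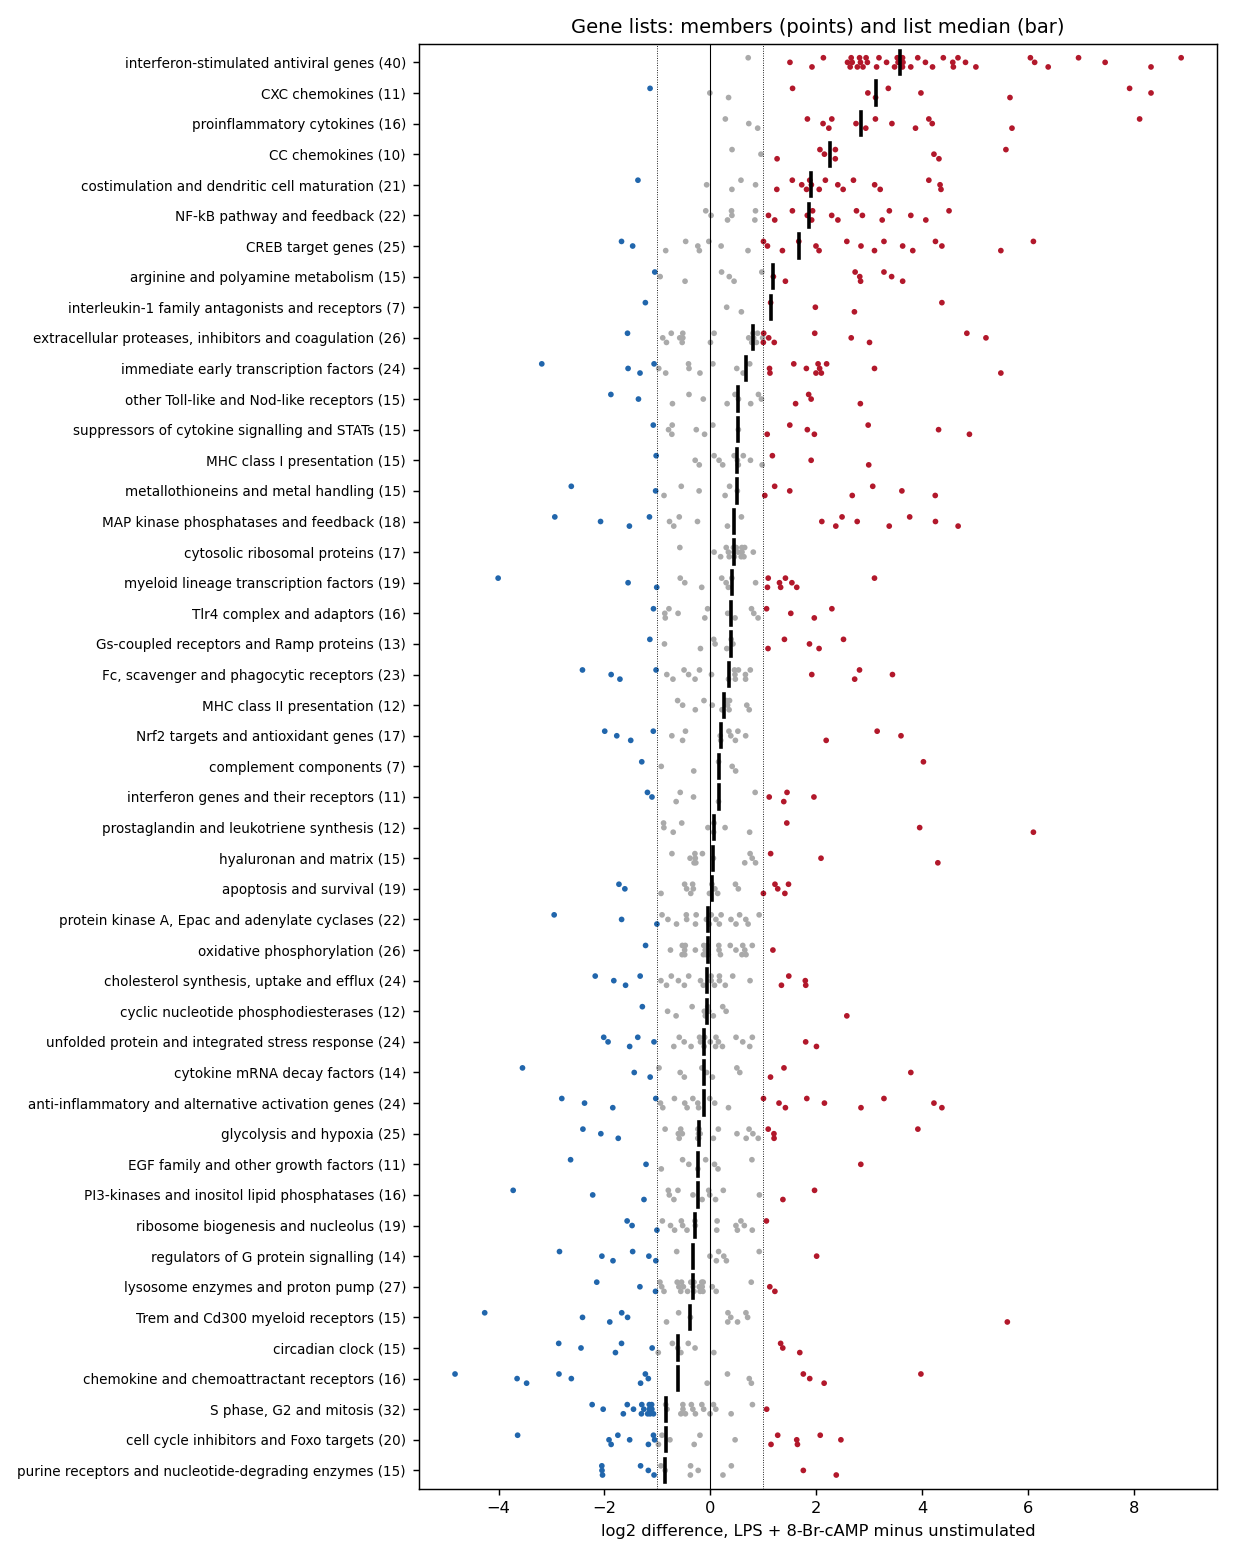
Log2 difference (LPS plus 8-Br-cAMP minus unstimulated) of each measured member (points; red at least 2-fold higher, blue at least 2-fold lower) of the 47 gene lists, with the list median as a bar and the number of measured members in parentheses. Medians run from 3.59 for interferon-stimulated antiviral genes to -0.85 for purine receptors and nucleotide-degrading enzymes.

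Receptors for immune complexes and dying cells went both ways, 4 of 23 higher and 4 lower, beside 9.36% and 15.8% of all measured genes. Fcgr4 and Fcgr1, activating Fc receptors, read 188 and 465 unstimulated and 1247 and 1756 with both agents, and Clec4e, the lectin Mincle, 1102 and 11986. Stab1 (-2.42), Gas6 (-1.87), Scarb1 (-1.71) and Lrp1 (-1.02), which take part in scavenging and the uptake of dying cells, were lower. Complement genes held Cfb higher, at 66.5 unstimulated, 891 with LPS and 1085 with both agents, and C1qa lower, at 3771, 2737 and 1537. Antioxidant genes held 3 of 17 higher, the cystine transporter Slc7a11 (3.60), the superoxide dismutase Sod2 (3.15) and Txnrd1 (2.19), and 4 lower. Among the lower ones Hmox1, which degrades haem, read 1158, 1603 and 291 and catalase (Cat) 1124, 625 and 330. Myeloid factors besides Cebpa included Spi1, the PU.1 factor, at 555, 771 and 275 (-1.01), and Irf4, at 203, 222 and 592 (1.54).

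In the metabolic lists, counts stand beside 9.36% of all measured genes at least 2-fold higher and 15.8% lower. Ribosomal proteins had 0 of 17 past 2-fold and a median of 0.45, which was -0.16 under cyclic loess and also negative under quantile normalization and as deposited. Oxidative phosphorylation had 1 of 26 higher and 1 lower. Glycolysis and hypoxia genes had 4 of 25 higher and 3 lower, the glucose transporter Slc2a6 (55.4, 669 and 841) being highest and Slc2a3 (658, 359 and 124) lowest, the latter with probe sets from -2.41 to -0.090. Egln3, an oxygen sensor, read 1239, 1121 and 295. In cholesterol metabolism 4 of 24 were higher, such as the exporter Abca1 (2576, 1994 and 6543), and 4 lower, such as Sqle (226, 101 and 63.9) and Dhcr7, at least 4.51-fold lower. The unfolded protein response had 2 of 24 higher, the chaperone Hspa5 (1.80) and Pdia4 (at least 4.02-fold), and 5 lower, among them the stress sensors Ern1 (-2.01), Eif2ak3 (-1.93) and Atf6 (-1.37).

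The next genes were picked for lying within 2-fold of the unstimulated array with both agents while differing most with LPS alone. A level near the unstimulated one was therefore the condition for being shown. Among those highest with LPS were F3, tissue factor, at 48.7 unstimulated, 360 with LPS and 80.6 with both agents, and Nod1, a sensor of bacterial peptidoglycan, at 61.4, 326 and 56.1. Tlr1 read 90.7, 472 and 125, Slamf8 44.4, 229 and 35.0, and the collagenase Mmp13 1566, 7124 and 2909. Cst7, Cp, Cpeb4, Rgl1 and Nck1 completed these 10, with differences from unstimulated of 0.36 to 0.96. By another probe set Cpeb4 (1.53), Cp (1.24) and Nck1 (1.01) passed 2-fold. For 7 of the 10, all but Nod1, Slamf8 and Cp, the difference turned negative with the signals as deposited, and that of Nod1 turned positive under quantile normalization and cyclic loess. Among genes lowest with LPS were Tmem119, at 201, under the floor and 104, Hdac5, at 280, 64.2 and 243, and Crtc3, a CREB coactivator, at 276, 68.0 and 176. E2f5 read 195, 46.1 and 355 and was the only one of these 10 above its unstimulated level (0.87, up to 1.62 by another probe set, but -0.19 as deposited), while that of Hdac5 turned to 0.068 under cyclic loess. Ssh2, Zfp771, Slc27a1, Fli1, Wdr81 and Gcsh, by -0.98 to -0.64, made up the rest.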

How the data were processed

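RNA from 3 cultures of mouse bone marrow-derived dendritic cells was hybridised to 3 Affymetrix Mouse 430 2.0 arrays, 1 per condition. The authors deposited linear signal intensity values per probe set, and the submitters' processing notes name MAS5 as the tool. Its settings are not stated in the sources used here. The 64 control probe sets were set apart. Each array was scaled to a common 2% trimmed mean and floored at the highest array median (32.5), and log2 differences were taken. Probe sets were named from GEO's platform annotation: of 45101 rows, 34945 had 1 gene symbol, 932 several and 9160 none listed. No scanner files were used, so saturation and detection could not be checked. The number of arrays limits the precision, and no test across genes was possible.

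Named genes were the 15 highest and lowest past 2-fold whose probe sets went the same way, the 10 extremes with LPS under 2-fold from unstimulated, the 10 in each direction under 2-fold apart though LPS differed, and up to 5 members of each list per direction, beside a short fixed set and the cell type markers. Arg1, Atf3, Bst2, Ccl12, Cd80, Cd83, Csf2, Cxcl5, Cxcl14, Dcun1d3, Dusp5, Fosl1, Fosl2, Icam1, Ifit3, Il4ra, Il12a, Il23a, Lta, Mx1, Mx2, Nfkbia, Ptger2, Ptger4, Rel, Rela, Relb, Retnla, Sik1 and Smox were added after their values were seen. The comparison and the gene lists were chosen with earlier results of these data known. Alternatives were quantile, median, cyclic loess, spike and no scaling, other floors, a pseudocount of 16, other choices of probe set and a 3-fold threshold. The scripts were tested on simulated data. Python 3.11.15, numpy 2.4.6, pandas 2.3.3, scipy 1.17.1, R 4.3.3 and limma 3.58.1 were used.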

Additional observations from a re-analysis of the deposited data

How the results depend on the processing

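Counts and the share of higher genes moved with the processing, and the cause was not tested. The share of higher genes among those past 2-fold, 37.3%, was 47.0% under quantile normalization, 48.8% under cyclic loess, 24.5% under spike scaling, 4.46% as deposited, 46.5% with the floor at the 25th percentile, 46.2% with it at the 75th, 41.8% with a pseudocount of 16 and 42.4% at a 3-fold threshold. The median difference moved from -0.12 to -0.0076 under cyclic loess, -0.32 under spike scaling and -1.08 as deposited. Higher and lower genes numbered 286 and 6125 as deposited, 2691 and 3099 with the lower floor, 721 and 839 with the higher floor, and 506 and 688 at 3-fold. Of the named genes past 2-fold, 6 changed sign: as deposited Irak2 (-0.029), Il15ra (-0.046), Bbc3 (-0.089) and Mki67 (-0.027), and with only probe sets ending in _at Cox5b (-0.14) and Mvk (-0.25). No paired analysis was possible because each condition had 1 array, and for the same reason no replicate could be left out. Signal near the floor limits the folds of 287 higher genes under it when unstimulated and 515 lower genes under it with both agents.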

Other observations

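Probe sets with no gene in the annotation table also differed. Of 9160 such probe sets 3683 read above the floor on either array. Past 2-fold, 240 of them (6.52%) were higher and 407 (11.1%) lower, and their median difference was 0.019.

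Genes of the cytokine mRNA decay list went both ways, with 3 of 14 at least 2-fold higher and 3 lower. Over all measured genes these shares were 9.36% and 15.8%. Zfp36, which encodes tristetraprolin and destabilises Tnf mRNA, was higher by 1.39, while its relatives Zfp36l2 and Zfp36l1 had differences of -3.55 and -1.44. Among apoptosis genes 5 of 19 were higher, such as the caspase-8 regulator Cflar (1.48), and 2 were lower, Bid (-1.73) and Pmaip1 (-1.61), both of which promote cell death. Markers of T and NK cells had no member past 2-fold among the 5 measured. Mast cell and basophil markers had 2 of 8 higher, Hdc, which makes histamine, and Kit, and 2 lower, Mcpt8 and Cpa3.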
